A study of Mus musculus with 19 samples.

Results

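The genes described here are 35 that mark the connective tissue, bone and blood vessels of bone marrow, taken by symbol from a table of 34432 genes. They comprise 11 matrix genes, 8 genes of bone-forming cells, 7 genes of the stromal niche, 7 vessel genes and 2 osteoclast genes. The symbols were chosen because the cells that make them lie wholly or mostly outside the blood lineages in which the Cre recombinase of the study acts. All 35 were found, and all 35 reached an average of 10 normalized counts per library, the level required for testing.

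Polyadenylated RNA was sequenced from marrow flushed out of the leg bones of 8-week-old untreated mice of 5 genotypes, on a C57BL/6 background by the title of the series. The double knockouts (DKO, n = 4) carried floxed Cdk8 with Vav-iCre and were Cdk19 null. Cdk8 knockouts (CDK8KO, n = 4) carried floxed Cdk8 with Vav-iCre, and Cdk19 knockouts (CDK19KO, n = 4) were Cdk19 null with no Cre named. The controls were mice with Vav-iCre alone (VAV, n = 4) and wild type (WT, n = 3). CDK8 and CDK19 are paralogous kinases of the Mediator complex, which carries signals from transcription factors to RNA polymerase II. The Vav promoter drives Cre in blood lineages, osteoclasts included, and also in part of the endothelium. Fibroblasts, osteoblasts and adipocytes of a CDK8KO mouse are therefore expected to keep Cdk8, whereas a null allele of Cdk19 is carried by every cell. Whether each library is a separate animal is not stated, and the p-values therefore reflect only how far these libraries differ, part of which may be technical.

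Marrow holds a small stromal compartment among a large excess of blood cells. Perivascular stromal cells that carry the leptin receptor make stem cell factor and collagen and wrap the sinusoids, which are lined by endothelium that bears VE-cadherin and stabilin-2. Osteoblasts on the bone surface lay down type I collagen and the mineral-binding proteins osteocalcin, bone sialoprotein and osteopontin, under the transcription factors Runx2 and osterix, and osteoclasts of blood origin resorb that matrix with acid phosphatase and cathepsin K. Flushing leaves most bone behind, so osteoblast RNA in such a sample is whatever came off with the marrow. Several of the 35 genes are also used by blood cells: Fn1 and Vim by macrophages and other leukocytes, Pecam1 by platelets and leukocytes, and Runx2 by plasmacytoid dendritic cells.

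Osteocalcin is encoded by a pair of neighbouring genes, and their coding sequences are shown because the reads of Bglap and Bglap2 can barely be told apart. Both lie on the minus strand of chromosome 3 of GRCm38 and are given 5′ to 3′, with the bases at which they differ in capitals. The coding sequence of Bglap spans chr3:88383635-88384415 and that of Bglap2 spans chr3:88377870-88378650.
Bglap: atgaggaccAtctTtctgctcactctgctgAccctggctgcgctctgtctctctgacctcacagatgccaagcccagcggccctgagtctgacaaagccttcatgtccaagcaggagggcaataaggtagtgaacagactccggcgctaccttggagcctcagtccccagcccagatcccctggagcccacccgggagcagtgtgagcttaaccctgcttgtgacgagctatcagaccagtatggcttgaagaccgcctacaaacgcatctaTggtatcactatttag
Bglap2: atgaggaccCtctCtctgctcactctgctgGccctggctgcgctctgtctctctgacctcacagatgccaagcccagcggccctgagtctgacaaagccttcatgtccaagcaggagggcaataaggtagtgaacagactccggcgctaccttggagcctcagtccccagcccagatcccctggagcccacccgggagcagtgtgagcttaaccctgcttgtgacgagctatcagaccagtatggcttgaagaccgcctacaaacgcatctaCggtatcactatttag
The coding sequences are 288 bases long and differ at 4 of them, an identity of 98.6%. Their longest shared run is 241 bases, longer than a read of 150 bases, so a count for either gene is uncertain and the pair is described together below.

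Promoters of 3 bone-forming genes are shown for the core of the RUNX motif, TGTGGT, to which Runx2 binds. The search covered both strands, and a match on the opposite strand reads as ACCACA in the window. The windows cover 250 bases before the gene start and 50 after it. They come from RefSeq on assembly GRCm38.p6, with the motif in capitals. Bglap is chr3:88384417-88384716 (minus strand), Mmp13 chr9:7272264-7272563 (plus strand) and Ibsp chr5:104299037-104299336 (plus strand).
Bglap: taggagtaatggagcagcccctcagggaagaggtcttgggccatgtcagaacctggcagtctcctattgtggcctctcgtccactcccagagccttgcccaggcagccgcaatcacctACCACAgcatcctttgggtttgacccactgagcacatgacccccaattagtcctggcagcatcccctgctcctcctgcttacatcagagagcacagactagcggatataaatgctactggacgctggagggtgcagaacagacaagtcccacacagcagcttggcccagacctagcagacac
Mmp13: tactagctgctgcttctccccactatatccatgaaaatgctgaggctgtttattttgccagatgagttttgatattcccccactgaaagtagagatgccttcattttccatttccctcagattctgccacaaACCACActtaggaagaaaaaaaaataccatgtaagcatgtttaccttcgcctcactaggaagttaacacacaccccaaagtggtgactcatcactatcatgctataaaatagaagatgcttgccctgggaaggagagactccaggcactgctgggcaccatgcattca
Ibsp: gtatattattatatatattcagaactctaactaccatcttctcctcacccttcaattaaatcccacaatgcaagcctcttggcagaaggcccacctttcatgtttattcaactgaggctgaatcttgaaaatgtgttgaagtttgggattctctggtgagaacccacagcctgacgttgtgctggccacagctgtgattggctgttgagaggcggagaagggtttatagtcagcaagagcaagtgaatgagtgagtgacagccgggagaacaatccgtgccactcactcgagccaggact
The Bglap window holds the motif 132 bases before the gene start and the Mmp13 window 118 bases before it, while the Ibsp window has no match. Among all promoters of this length in the table, 16.8% hold the motif on either strand. Of the 8 promoters listed for 6 bone-forming genes, 4 hold it, and of the 31 listed for 25 of the 35 genes, 6 do. A match describes the letters of the window and says nothing of binding in these mice.

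Libraries held 14881701 to 33010241 reads assigned to genes. Cdk19 was at 1110 to 1202 normalized counts in DKO and 1025 to 1174 in CDK19KO, below every library of the other genotypes, which held 2710 to 4304. Cdk8 was at 742 to 881 in DKO and 692 to 1298 in CDK8KO, against 789 to 1315 in VAV and 1206 to 1275 in WT. Reads over the full length of Cdk8 cannot show whether a floxed exon was deleted, so that genotype is taken from the labels. Red cell genes (19 markers in the table) took 3.71% of reads in CDK8KO replicate 1 and 3.32% in VAV replicate 3, and 0.128 to 1.52% in the other libraries. Skeletal muscle genes (16 markers) peaked at 0.0383% of reads in DKO replicate 4 and 0.137% in CDK19KO replicate 4, with at most 0.0025% elsewhere. Of 11 cartilage genes, 1 passed the filter on low values.

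The levels of the 35 genes per kilobase of exon differed widely. Vim, an intermediate filament protein, averaged 2854 normalized counts per kb over the 19 libraries, and Fn1, the matrix glycoprotein fibronectin, 1622. Acp5, the acid phosphatase of osteoclasts, followed at 301.4 per kb, Runx2 at 288 and Ibsp, bone sialoprotein, at 272. The order fell through Pecam1 (232 per kb), Spp1 (215), Sparc (207), Cxcl14 (141) and Col1a1 (112). Of the niche genes, Adipoq was at 106 per kb, Lepr at 86.3 and Kitl at 78.6, against 30.0 for Pdgfrb and 7.47 for Pdgfra. The vessel genes other than Pecam1 ranged from Cdh5 at 62.6 per kb and Stab2 at 40.6 through Kdr at 21.5, Tie1 at 14.95 and Flt4 at 10.6 to Emcn at 9.39. At the low end were Col3a1 (7.29 per kb), Sp7, the transcription factor osterix (3.06), and Postn, periostin (2.50). Together the 35 genes took 0.150 to 0.275% of reads, and without Fn1 and Vim 0.0408 to 0.0769%.

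**Figure D1:**
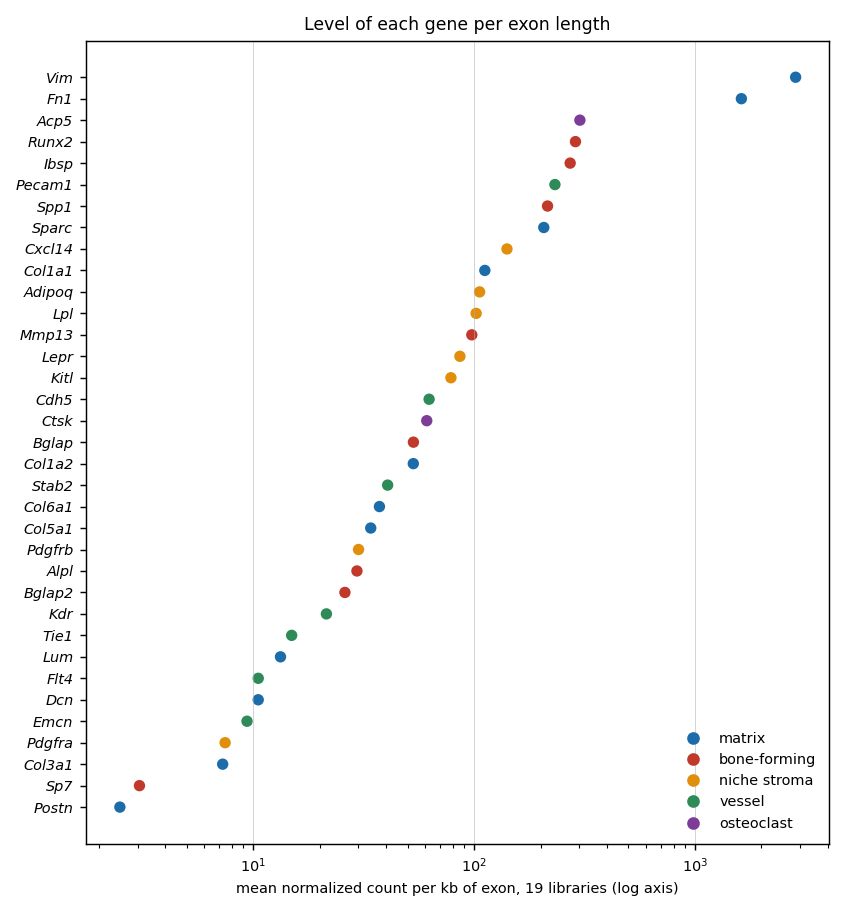
Level of each of the 35 genes, as the mean normalized count per kb of exon over the 19 libraries (log axis), with points coloured by role. Vim (2854) and Fn1 (1622) stand above the rest, and Postn (2.50) and Sp7 (3.06) are lowest.

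Sparse genes were close to the limit of detection. Bglap was at 3 reads or fewer in 2 libraries, and Bglap2 and Sp7 in 3 each. Bglap2 had no reads in CDK8KO replicate 4 or VAV replicate 2, which allows up to 2.26 and 2.19 normalized counts there, for counting error only.

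Libraries of 1 genotype differed more in these genes than in the transcriptome at large. The within-genotype SD on the log2 scale had a median of 0.55 over the 35 genes and 0.28 over the 13976 genes tested. It was highest for Bglap2 (1.26), Bglap (1.24), Col3a1 (1.12), Ctsk (0.98) and Col1a1 (0.96), and lowest for Runx2 (0.21), Pecam1 (0.28), Lpl (0.30) and Vim (0.31). By role, the median SD was 0.65 for matrix genes, 0.60 for bone-forming genes, 0.52 for niche genes and 0.43 for vessel genes. Bglap2, Bglap and Sp7 (0.83) are also the genes that came closest to 0 reads, and the part of counting error in the spread was not tested.

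Several libraries were high or low in most of the 35 genes. Relative to the mean of their own genotype, 32 of the 35 genes were higher in WT replicate 2, and 28 of 35 in each of CDK8KO replicate 1, CDK19KO replicate 2 and VAV replicate 3. In contrast, 6 of 35 were higher in CDK8KO replicate 3 and 7 of 35 in CDK19KO replicate 1. WT replicate 2 held the highest level of all 19 libraries for 9 genes, among them Lepr (1066 normalized counts), Ibsp (1280), Dcn (138) and Adipoq (327). Each of the 4 libraries with at least 28 genes above the mean is also the library of its genotype with the most red cell transcripts: 3.71% of reads in CDK8KO replicate 1 (0.443 to 0.986% in the others), 1.52% in CDK19KO replicate 2 (0.586 to 1.28%), 3.32% in VAV replicate 3 (0.128 to 0.271%) and 1.09% in WT replicate 2 (0.609 and 0.801%). The part of red cell content in these levels was not tested.

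**Figure D2:**
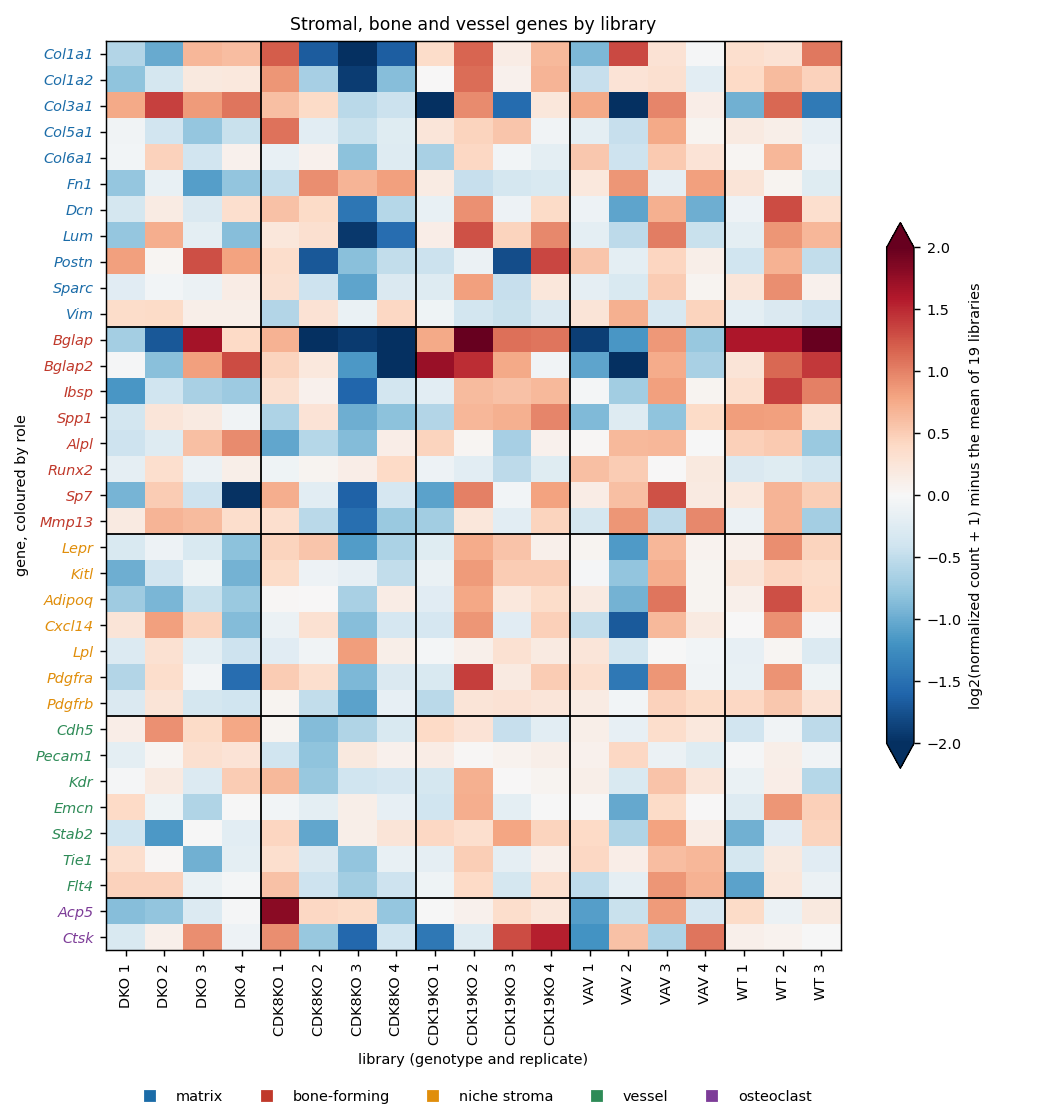
Level of each gene in each library, as log2(normalized count + 1) minus the mean of the 19 libraries (colour, limited to a change of 2 either way); rows are genes grouped by role and columns are libraries grouped by genotype. WT 2, CDK19KO 2, VAV 3 and CDK8KO 1 are mostly red, and CDK8KO 3 and CDK19KO 1 mostly blue.

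The genes did not rise and fall as a single block across libraries. Each gene's deviation from its genotype mean was set against that of Lepr, which marks perivascular stroma, and that of Col1a1, a chain of type I collagen and the main product of osteoblasts. Of the other 34 genes, 8 varied with Lepr by both Pearson's r and Spearman's rho after Benjamini-Hochberg adjustment over 76 relations (100000 permutations within genotypes, two-sided), all in the positive direction. They were Pdgfra, Ibsp, Lum, Cxcl14, Col6a1, Dcn, Kitl and Col3a1. Col1a2, the partner chain of type I collagen, was the gene that varied with Col1a1 by both tests.

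Pdgfra, a growth factor receptor of mesenchymal cells, was closest to Lepr, with r = 0.877 (permutation adjusted p = 0.00304) and rho = 0.877 (adjusted p = 0.00557). Ibsp, although a gene of bone matrix, came next with r = 0.864 and rho = 0.861 (permutation adjusted p = 0.00513 and 0.00589), and its r with Col1a1 was 0.299. The proteoglycan Lum had r = 0.831 and rho = 0.853 with Lepr (permutation adjusted p = 0.017 and 0.00836). Kitl, which encodes stem cell factor, had r = 0.748 and rho = 0.756 (permutation adjusted p = 0.017 and 0.00836). These relations are between genes measured in the same 19 libraries, and the points share the library, its depth and its mix of cells.

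Neither chain of type I collagen passed with Lepr, though differences between correlations were not tested. Lepr and Col1a1 had r = 0.0905 and rho = 0.00351 (permutation adjusted p = 0.906 and 0.993). Col1a2 had r = 0.872 and rho = 0.80 with Col1a1 (permutation adjusted p = 0.00513 and 0.00775), and r = 0.429 with Lepr (adjusted p = 0.423). Bglap had r = 0.752 and rho = 0.711 with Col1a1 (permutation adjusted p = 0.0698 and 0.0617), short of the threshold. Without the libraries farthest from the median of Lepr, CDK8KO replicate 3 and VAV replicate 2, r with Lepr was 0.817 for Pdgfra, 0.783 for Ibsp, 0.835 for Lum and 0.737 for Kitl. Without CDK8KO replicate 1 and VAV replicate 2, r between Col1a2 and Col1a1 was 0.795. Without the libraries richest in red cell transcripts, r with Lepr was 0.846 for Pdgfra, 0.812 for Ibsp, 0.766 for Lum and 0.645 for Kitl. Without the same libraries, r between Col1a2 and Col1a1 was 0.738, and that between Lepr and Col1a1 was -0.29.

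No vessel gene passed with either marker. Pecam1 had r = -0.745 and rho = -0.712 with Lepr (permutation adjusted p = 0.0664 and 0.0681). Flt4 had r = 0.577 and rho = 0.621 (permutation adjusted p = 0.138 and 0.0844), Tie1 r = 0.551 and rho = 0.584 (permutation adjusted p = 0.0837 and 0.0859), and Emcn r = 0.539 and rho = 0.451 (permutation adjusted p = 0.104 and 0.232). Cdh5, which is restricted to endothelium, had r = 0.173 and rho = 0.216 with Lepr (permutation adjusted p = 0.692 and 0.64). The mean level of the megakaryocyte and platelet markers had r = 0.675 and rho = 0.593 with Lepr (permutation adjusted p = 0.0753 and 0.106), and that of the red cell markers r = 0.599 and rho = 0.54 (adjusted p = 0.23 and 0.167). Whether these lineages take part in the variation of stromal RNA was not tested.

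**Figure D3:**
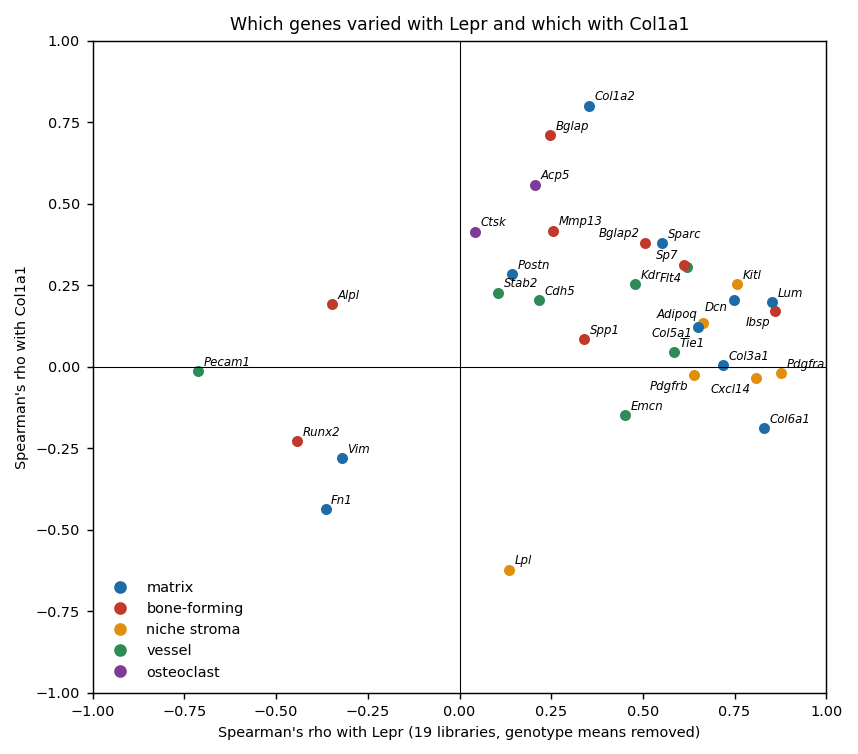
Spearman's rho of each gene with Lepr (horizontal) and with Col1a1 (vertical) over 19 libraries after subtraction of genotype means, coloured by role. Pdgfra (0.877 with Lepr), Ibsp and Lum lie far right near the level of 0 with Col1a1, while Col1a2 (0.80 with Col1a1) and Bglap lie at the top.

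Loss of both kinases was compared with the Cre control as the test of the double knockout. In DKO against VAV, none of the 35 genes passed at an adjusted p under 0.05 (limma, adjusted over all genes tested), against a background of 1.52% of all genes. Without adjustment 4 of the 35 had p under 0.05, against 15.7% of all genes. EdgeR called 0 of the 35 and 1.43% of all genes, and DESeq2 called 1 (Fn1) and 3.62% of all genes. In this bulk tissue fewer cells of a type and less RNA per cell cannot be told apart, here or in the comparisons that follow. The log2 fold change had a median of -0.11 over the 35 genes and -0.01 over all genes, with 23 of 35 below 0. The median of the 35 was -0.20 without VAV replicate 2 or VAV replicate 1, -0.07 without DKO replicate 1, -0.04 without VAV replicate 3 and -0.0046 with the red cell level as a covariate. In no gene of the 35 were the libraries of DKO and VAV separate, where 8.49% of all genes tested were separate.

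Among the matrix genes, Fn1 was closest to the threshold. Fn1 had 10223, 15761, 8106 and 10118 normalized counts in DKO, against 20173, 32083, 15336 and 30625 in VAV. DKO replicate 2 was just above VAV replicate 3, and every other DKO library was below every VAV library. The mean was 11052 ± 3287 in DKO and 24554 ± 8118 in VAV (SD, n = 4 each), and the log2 fold change was -1.13 ± 0.29 (limma, SE; adjusted p = 0.0567). The adjusted p was 0.0351 without DKO replicate 2, 0.0122 without CDK8KO replicate 1, which enters through the shared estimate of spread, and 0.0266 without VAV replicate 3. It was 0.00323 without both libraries rich in red cell transcripts, 0.196 without both libraries rich in muscle transcripts, and at most 0.205 with any other single library left out.

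Macrophages also make fibronectin, so their markers are given beside Fn1. Of 16 macrophage markers, 2 fell in DKO against VAV, and the list took 0.107 to 0.158% of reads in DKO against 0.120 to 0.151% in VAV, with no marker at 0 in either. The markers that fell were Cd163, a hemoglobin scavenger receptor, with a log2 fold change of -3.01 ± 0.21, and Hmox1, heme oxygenase, with -1.01 ± 0.21 (limma, SE; adjusted p = 6.5e-08 and 0.0154). Neutrophil markers fell in 2 of 15 cases, Mmp8 and Camp, and 14 of the 15 had a negative fold change. The neutrophil list took 3.26 to 4.73% of reads in DKO against 3.78 to 6.31% in VAV. Of 16 megakaryocyte and platelet markers, 1 fell (Thbs1), and the list took 0.0222 to 0.0446% of reads in DKO against 0.0473 to 0.223% in VAV. All 16 had a negative fold change (median log2 -1.37), and 10 had an unadjusted p under 0.05 (limma). None of 19 red cell and 16 muscle markers passed in DKO against VAV, though 18 of the 19 had a negative and all 16 a positive fold change. The part of these cells in the Fn1 difference was not tested.

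Fibrillar collagens differed in direction. Col5a1, a minor chain that starts collagen fibrils, had 262, 210, 161 and 200.8 normalized counts in DKO, against 240, 200, 463 and 284 in VAV. The ranges overlap, and VAV replicate 3 alone lies far above DKO. Its log2 fold change was -0.45 ± 0.29 (limma, SE; adjusted p = 0.463). Col3a1, the type III collagen of reticular fibres, had 95.4, 146, 102 and 118 in DKO, against 95.4, 12.4, 111 and 61.3 in VAV. All 4 DKO libraries are at or above 95.4, while VAV replicate 2 is far lower than the rest, and the log2 fold change was 1.07 ± 0.70 (limma, SE; adjusted p = 0.478). The remaining 8 matrix genes had log2 fold changes between -0.25 and 0.51.

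Of the bone-forming genes, 4 had a positive and 4 a negative fold change. Ibsp had 220, 375, 315 and 299.8 normalized counts in DKO, against 484, 306, 874 and 517 in VAV. VAV replicate 2 falls inside the DKO range, and the other VAV libraries are above it. The mean was 302 ± 63.8 in DKO and 545 ± 238 in VAV (SD, n = 4 each), and the log2 fold change was -0.77 ± 0.36 (limma, SE; adjusted p = 0.31). Sp7 had 4.15, 13.0, 6.32 and 1.5 in DKO, against 9.81, 13.9, 22.7 and 10.1 in VAV, and DKO replicate 2 alone reaches the VAV range. At these low counts its log2 fold change was -1.25 ± 0.60 (limma, SE; adjusted p = 0.318). Runx2 had 2204, 3155, 2284 and 2698 in DKO, against 3781, 3551, 2511 and 2855 in VAV, with overlapping ranges and a log2 fold change of -0.29 ± 0.14 (limma, SE; adjusted p = 0.337).

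Bglap and Bglap2 spread too widely to resolve a change. Bglap had 11.6, 5.19, 63.2 and 25.5 normalized counts in DKO, against 4.46, 8.02, 35.7 and 10.9 in VAV. DKO replicate 3 and VAV replicate 3 were each the highest of their group for Bglap. Bglap2 had 8.30, 4.33, 15.8 and 22.5 in DKO, against 3.57, 0, 14.8 and 5.03 in VAV. The log2 fold changes were 0.66 ± 0.80 and 1.37 ± 0.83 (limma, SE; adjusted p = 0.726 and 0.436).

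Of the niche genes, 6 of 7 had a negative fold change, against 51.2% of all genes, and none passed the test. Adipoq, adiponectin, had 81.3, 70.1, 97.9 and 79.4 normalized counts in DKO, against 151, 68.5, 281 and 138 in VAV. VAV replicate 2 is the lowest library of both groups, and the other VAV libraries are all above DKO. Its log2 fold change was -0.79 ± 0.34 (limma, SE; adjusted p = 0.268). Kitl had 222, 336, 412 and 225 in DKO, against 427, 252, 722 and 453 in VAV, again with VAV replicate 2 inside the DKO range, and a log2 fold change of -0.59 ± 0.28 (limma, SE; adjusted p = 0.318). Pdgfrb, a receptor of pericytes, had 129, 189, 123 and 120 in DKO, against 177, 152, 218 and 207 in VAV. DKO replicate 2 is inside the VAV range and the others are below it, and the log2 fold change was -0.44 ± 0.24 (limma, SE; adjusted p = 0.386). Lepr had 319 to 523 in DKO and 255 to 888 in VAV, a log2 fold change of -0.30 ± 0.37.

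Vessel genes split in direction, 3 positive and 4 negative. Tie1, an endothelial receptor of the angiopoietin pathway, had 88.8, 71.8, 35.8 and 61.5 normalized counts in DKO, against 94.5, 77.3, 109 and 112 in VAV. DKO replicate 1 lies inside the VAV range and the others below it, and the log2 fold change was -0.66 ± 0.28 (limma, SE; adjusted p = 0.264). Stab2, a scavenger receptor of sinusoids, had 251, 148, 328 and 286 in DKO, against 435, 217, 581 and 367 in VAV, which overlap through VAV replicate 2, and a log2 fold change of -0.63 ± 0.35 (limma, SE; adjusted p = 0.394). Cdh5, VE-cadherin, had 275, 470.0, 327 and 427 in DKO, against 270, 224, 319 and 290 in VAV. All but DKO replicate 1 lie above the VAV range, and the log2 fold change was 0.42 ± 0.23 (limma, SE; adjusted p = 0.383).

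The osteoclast genes showed no common direction. Acp5 had 302, 314, 453 and 538 normalized counts in DKO, against 252, 401, 979 and 432 in VAV, with a log2 fold change of -0.22 ± 0.41 (limma, SE; adjusted p = 0.83). VAV replicate 3 holds by far the most Acp5, and the fold change was 0.15 without it. Ctsk, cathepsin K, had 62.2, 83.1, 147 and 71.9 in DKO, against 33.0, 116, 49.7 and 163 in VAV, with a log2 fold change of 0.20 ± 0.62 (limma, SE; adjusted p = 0.90). Its sign turned without DKO replicate 3 (-0.06) or VAV replicate 1 (-0.18), and neither gene separates the groups.

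**Figure D4:**
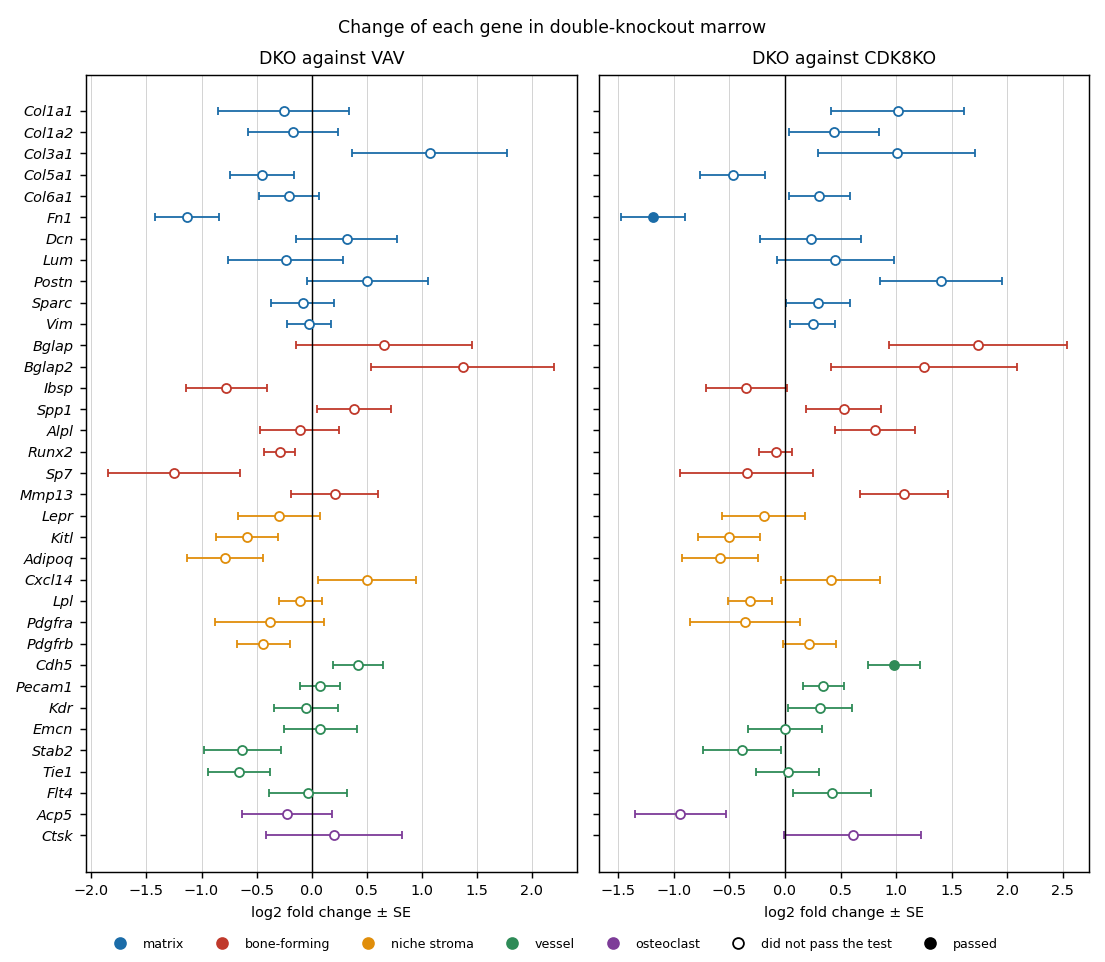
Log2 fold change ± SE (limma) of each of the 35 genes in DKO against VAV (left) and DKO against CDK8KO (right), coloured by role; filled points passed at an adjusted p under 0.05. On the left none is filled, and Fn1 (-1.13) is near the threshold; on the right Fn1 (-1.19) and Cdh5 (0.98) are filled.

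DKO against CDK8KO asks what loss of Cdk19 adds where Cdk8 is already floxed with Cre. Of the 35 genes, 1 rose (Cdh5) and 1 fell (Fn1), against a background of 1.7% of all genes. The median log2 fold change was 0.30 over the 35 genes and 0.00 over all genes, with 22 above 0 and 13 below. The median of the 35 was 0.06 without CDK8KO replicate 3, 0.16 without DKO replicate 2 and 0.48 with the red cell level as a covariate. Of the 35 genes, 7 had an unadjusted p under 0.05, against 16.1% of all genes, and edgeR (1.57% of all genes) and DESeq2 (5.11%) each called Cdh5 and Fn1. The libraries of both genotypes were separate for 2 genes, Cdh5 and Col3a1, both higher in DKO, where 7.43% of all genes were separate.

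Cdh5 had 275, 470.0, 327 and 427 normalized counts in DKO, against 261, 136, 164 and 202 in CDK8KO. Every DKO library was above every CDK8KO library, though DKO replicate 1 and CDK8KO replicate 1 were close. The mean was 375 ± 89.6 in DKO and 191 ± 54.0 in CDK8KO (SD, n = 4 each), and the log2 fold change was 0.98 ± 0.23 (limma, SE; adjusted p = 0.0342). VAV libraries held 270, 224, 319 and 290. WT libraries held 192, 239 and 174, within the range of CDK8KO. The log2 fold change of Cdh5 was -0.56 ± 0.23 in CDK8KO against VAV and 0.42 ± 0.23 in DKO against VAV (limma, SE, adjusted p = 0.586 and 0.383). The call was lost without DKO replicate 2 (adjusted p = 0.108), replicate 3 (0.062) or replicate 4 (0.108), and without CDK8KO replicate 2 (0.0846) or replicate 3 (0.0784), and without both muscle-rich libraries (0.135), while with single libraries left out the fold change stayed between 0.83 and 1.15. Of the other vessel genes, Pecam1 had a log2 fold change of 0.34 ± 0.18, Flt4 0.42 ± 0.35, Kdr 0.31 ± 0.29, Tie1 0.02 ± 0.28, Emcn 0.00 ± 0.33 and Stab2 -0.38 ± 0.35, none of which passed.

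Fn1 had 10223, 15761, 8106 and 10118 normalized counts in DKO, against 12524, 33072, 27938 and 30607 in CDK8KO. CDK8KO replicate 1, rich in red cell transcripts, lies inside the DKO range, and the other CDK8KO libraries hold at least 27938. The mean was 11052 ± 3287 in DKO and 26035 ± 9248 in CDK8KO (SD, n = 4 each), and the log2 fold change was -1.19 ± 0.29 (limma, SE; adjusted p = 0.0406). The fold change was -1.51 without CDK8KO replicate 1 and VAV replicate 3 (adjusted p = 0.00131), and between -1.51 and -1.04 over all single libraries left out. The call was lost without DKO replicate 1 (adjusted p = 0.0881), 3 (0.125) or 4 (0.107), CDK8KO replicate 2 (0.0941), 3 (0.0904) or 4 (0.066), CDK19KO replicate 2 (0.0511), 3 (0.0555) or 4 (0.055), WT replicate 1 (0.0513), 2 (0.0539) or 3 (0.0506), and without both muscle-rich libraries (0.14). Of 19 red cell markers 1 fell (Car1), with the list at 0.161 to 0.441% of reads in DKO against 0.443 to 3.71% in CDK8KO. All 19 had a negative fold change (median log2 -1.55), and 18 had an unadjusted p under 0.05 (limma). Macrophage markers fell in 3 of 16 cases in the same comparison (Cd163, Hmox1 and Timd4), with the list at 0.107 to 0.158% of reads in DKO against 0.110 to 0.148% in CDK8KO. Neutrophil markers fell in 2 of 15 cases (Camp and Mmp8), with the list at 3.26 to 4.73% of reads in DKO against 3.18 to 5.67% in CDK8KO. The part of these cells was not tested.

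Other genes with p under 0.05 before adjustment in DKO against CDK8KO were Mmp13, a collagenase (330 ± 53.4 in DKO and 172 ± 91.8 in CDK8KO, SD), Postn (32.9 ± 11.1 in DKO and 12.9 ± 8.02 in CDK8KO), Alpl (139 ± 62.6 in DKO and 76.9 ± 30.3 in CDK8KO), Bglap (26.4 ± 26 in DKO and 9.79 ± 14.6 in CDK8KO) and Acp5 (402 ± 114 in DKO and 915 ± 685 in CDK8KO). Their limma adjusted p lay between 0.182 and 0.287. Acp5 had 1903 normalized counts in CDK8KO replicate 1 and 319 to 726 in the other CDK8KO libraries.

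DKO against CDK19KO sets the combined genotype beside the Cdk19 null allele on its own. DKO carries floxed Cdk8 and Vav-iCre and CDK19KO has no Cre named, so Cdk8 loss and Cre cannot be told apart here. None of the 35 genes passed (limma), against a background of 2%, with 9 of 35 at an unadjusted p under 0.05, against 15.6% of all genes. EdgeR called 0 of the 35 and 1.78% of all genes, and DESeq2 called 2 (Ibsp and Kitl) and 4.32% of all genes. The median log2 fold change was -0.28 over the 35 genes and -0.01 over all genes, and that of the 35 was 0.03 with the red cell level as a covariate. All 7 niche genes were below 0, with a median of -0.67, where 51.5% of all genes were below 0. Libraries were separate for 6 of the 35, or 17.1%, near the 15% of all genes: Ibsp, Adipoq, Stab2, Col5a1 and Acp5 were lower in every DKO library and Vim higher. For VAV against WT, the log2 fold changes of these genes were -0.87 (Ibsp), -0.51 (Adipoq), 0.43 (Stab2), -0.01 (Col5a1), -0.41 (Acp5) and 0.57 (Vim), none of which passed. Of the 7 niche genes, 6 were also below 0 in VAV against WT, with a median of -0.36, and Kitl was at -0.36. None of the 7 passed there, where 50.8% of all genes were below 0.

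Kitl had 222, 336, 412 and 225 normalized counts in DKO, against 396, 790, 621 and 622 in CDK19KO. DKO replicate 3 lies above CDK19KO replicate 1 and the groups otherwise do not overlap. The log2 fold change was -1.03 ± 0.28 (limma, SE; adjusted p = 0.0654). Ibsp had 220, 375, 315 and 299.8 in DKO, against 429, 769.8, 742 and 776 in CDK19KO, a log2 fold change of -1.15 ± 0.36 (limma, SE; adjusted p = 0.124). Every DKO library was below every CDK19KO library for Ibsp. Adipoq was at 82.2 ± 11.6 in DKO and 167 ± 47.8 in CDK19KO, Stab2 at 253 ± 77.1 in DKO and 472 ± 69.7 in CDK19KO, and Vim at 15631 ± 1608 in DKO and 10731 ± 1191 in CDK19KO (SD, n = 4 each; limma adjusted p = 0.167, 0.193 and 0.194). Red cell markers took 0.161 to 0.441% of reads in DKO and 0.586 to 1.52% in CDK19KO, without overlap. None of Kitl, Ibsp, Adipoq, Stab2 and Vim passed with the red cell level as a covariate, nor without it. Because the groups do not overlap in red cell share, the covariate cannot tell red cell content from genotype, and the part of red cells was not tested. Kitl passed without CDK8KO replicate 1, CDK19KO replicate 1, VAV replicate 2 or VAV replicate 3 (1 call each). In these fits 441, 189, 285 and 390 of all genes were called (279 as reported). Ibsp passed without CDK8KO replicate 3, when 306 of all genes were called. Kitl, Ibsp, Col5a1 and Vim passed without both libraries rich in red cell transcripts (4 calls), when 880 of all genes were called.

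**Figure D5:**
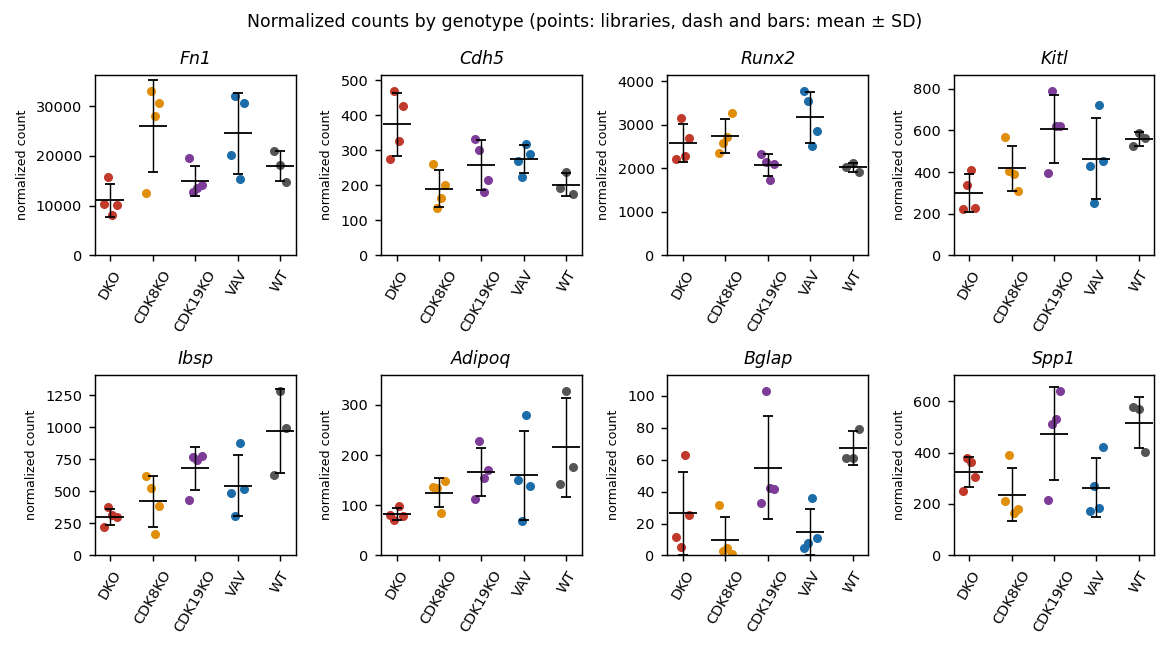
Normalized counts of 8 genes in each library (points) with the mean ± SD of each genotype (dash and bars), on separate linear axes that start at 0. Fn1 is lowest in DKO (mean 11052), Cdh5 highest in DKO (375), and Bglap and Spp1 are lower in VAV (14.8 and 262) than in WT (67.1 and 516).

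Floxed Cdk8 with Cre was set against Cre alone. In CDK8KO against VAV none of the 35 genes passed, as was so for all 13976 genes (0 by limma, 0 by edgeR, 1 or 0.00718% by DESeq2; 1161 genes at an unadjusted p under 0.05). Of the 35, 6 had an unadjusted p under 0.05, against 8.31% of all genes, the smallest being that of Pdgfrb, and 26 had a negative fold change. Pdgfrb had 164, 112, 74.4 and 142 normalized counts in CDK8KO, against 177, 152, 218 and 207 in VAV, a log2 fold change of -0.66 ± 0.24 (limma, SE; adjusted p = 0.586). CDK8KO replicate 1 alone lies inside the VAV range. Col1a1 had 1380, 187, 121 and 189 in CDK8KO, against 317, 1493, 729 and 587 in VAV. CDK8KO replicate 1 lies inside the VAV range for Col1a1, and the other CDK8KO libraries lie below it. No gene of the 35 had separate libraries, where 1.76% of all genes did.

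In CDK19KO against WT none of the 35 genes passed (limma; background 0.0215%), none had an unadjusted p under 0.05 (3.07% of all genes), and neither edgeR (0.0215% of all genes) nor DESeq2 (0.108%) called any. The median log2 fold change was -0.02, and lay between -0.14 and 0.12 with single libraries left out. Stab2 had the smallest p, with 441, 419, 574 and 452 normalized counts in CDK19KO, against 169, 283 and 451 in WT, a log2 fold change of 0.75 ± 0.38. WT replicate 3 falls inside the CDK19KO range and the other WT libraries are below it. Pdgfrb was lower in every CDK19KO library (109 to 193) than in every WT library (194 to 231), where 7.61% of all genes were separate.

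VAV against WT sets mice with Vav-iCre alone beside wild type. Any other difference between these groups cannot be told apart from the transgene. None of the 35 genes passed (limma; background 0.093%), and 6 had an unadjusted p under 0.05, against 14.8% of all genes. EdgeR called 0 of the 35 and 0.1% of all genes, and DESeq2 called 1 (Runx2) and 2.3% of all genes. Runx2 had 3781, 3551, 2511 and 2855 normalized counts in VAV, against 2026, 2113 and 1919 in WT. Every VAV library was above every WT library. The mean was 3174 ± 592 in VAV (SD, n = 4) and 2020 ± 96.8 in WT (SD, n = 3), a log2 fold change of 0.63 ± 0.16 (limma, SE; adjusted p = 0.114).

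Bglap had 4.46, 8.02, 35.7 and 10.9 normalized counts in VAV, against 61.0, 61.2 and 79.3 in WT, a log2 fold change of -2.48 ± 0.86 (limma, SE; adjusted p = 0.204). Every VAV library was below every WT library, in a gene whose reads are shared with Bglap2. Bglap2 itself had 3.57, 0, 14.8 and 5.03 in VAV, against 10.3, 19.9 and 24.3 in WT, which overlap through VAV replicate 3 (limma adjusted p = 0.31). Spp1, osteopontin, had 174, 268, 185 and 423 in VAV, against 578, 568 and 402 in WT, a log2 fold change of -1.05 ± 0.36 (limma, SE; adjusted p = 0.204). VAV replicate 4 alone reaches the WT range. Vim was at 16364 ± 4582 in VAV (SD, n = 4) and 10672 ± 829 in WT (SD, n = 3; limma adjusted p = 0.241). In all, the libraries were separate for 3 of the 35 genes (Runx2 higher, Bglap and Col1a2 lower), or 8.57%, where 12.4% of all genes were separate. Without VAV replicate 3 both Runx2 and Vim passed, when 416 of all genes were called (13 as reported). Without that library and CDK8KO replicate 1, Runx2, Vim and Bglap passed, when 1060 of all genes were called.

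The interaction subtracts the difference of CDK19KO and WT from that of DKO and CDK8KO, and tests whether loss of Cdk19 acts differently with and without the floxed Cdk8 and Cre. None of the 35 genes passed (limma; background 0.15%), nor with edgeR (0.129% of all genes) or DESeq2 (0.704%). An unadjusted p under 0.05 was found for Fn1 and Stab2, against 8.64% of all genes. Stab2 had an interaction of -1.13 ± 0.52 (limma, SE; adjusted p = 0.566). Fn1 had an interaction of -0.92 ± 0.42 (limma, SE; adjusted p = 0.574) and Cdh5 of 0.66 ± 0.34 (adjusted p = 0.604). The changes of Fn1 and Cdh5 in DKO against CDK8KO were thus not shown to differ from those in CDK19KO against WT, which were -0.27 ± 0.31 for Fn1 and 0.32 ± 0.25 for Cdh5. The comparisons with DKO share the DKO libraries and are not independent of each other.

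Further genes of the same tissues, from lists other than the 35, gave a few more calls. Of 25 other vessel genes, 1 rose in DKO against VAV (Lyve1), 2 rose in DKO against CDK8KO (Lyve1 and Aplnr), and 3 rose and 1 fell in DKO against CDK19KO (Lyve1, Aplnr and Calcrl, and Eng). Calcrl had 1931 to 2844 normalized counts in DKO and 1211 to 1511 in CDK19KO, against 1913 to 2385 in VAV and 1185 to 1279 in WT. Its DKO and VAV ranges overlap. Eng had 206 to 359 in DKO and 435 to 708 in CDK19KO, against 378 to 609 in VAV and 521 to 573 in WT. The part of Cre in these differences was not tested. Lyve1, a hyaluronan receptor of lymphatic endothelium and of some macrophages and sinusoids, had 168, 223, 193 and 481 normalized counts in DKO, against 73.1, 143, 68.8 and 60.4 in VAV. Every DKO library was above every VAV library, with DKO replicate 4, which also holds muscle RNA, by far the highest. The log2 fold change was 1.57 ± 0.31 against VAV and 1.52 ± 0.31 against CDK8KO (limma, SE; adjusted p = 0.0127 and 0.0161). Without both muscle-rich libraries it was 1.24 and 1.19 (adjusted p = 0.0513 and 0.0652), past the threshold in neither. Against CDK8KO the call was also lost without DKO replicate 4 alone (adjusted p = 0.0561) or CDK8KO replicate 1 (0.0526).

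Aplnr, the apelin receptor of endothelium, had 229, 191, 178 and 187 normalized counts in DKO, against 68.5, 86.1, 67.8 and 93.4 in CDK8KO. The groups did not overlap, and all DKO libraries were also above every library of the remaining genotypes, of which VAV replicate 2 was highest at 125. The log2 fold change against CDK8KO was 1.31 ± 0.29 (limma, SE; adjusted p = 0.0233), and it lay between 1.24 and 1.4 with any single library left out. The call was lost without any of the 4 DKO libraries (adjusted p = 0.0657, 0.0578, 0.0509 and 0.0643 for replicates 1 to 4), and without CDK8KO replicate 1 (0.0708) or 3 (0.0581), or both muscle-rich libraries (0.0824).

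Of 33 other matrix genes, Col14a1, a collagen that binds fibrils, fell in DKO against VAV and against CDK8KO. Col14a1 had 160, 100.4, 163 and 97.4 normalized counts in DKO, against 271, 204, 322 and 276 in VAV and 218.5, 298, 191.5 and 365 in CDK8KO. Every DKO library was below every VAV and CDK8KO library. The log2 fold changes were -1.06 ± 0.25 and -1.03 ± 0.25 (limma, SE; adjusted p = 0.0394 and 0.0426). Against VAV the call was lost without DKO replicate 2 (adjusted p = 0.0974) or 4 (0.148), CDK19KO replicate 2 (0.0533), VAV replicate 1 (0.0972), 3 (0.0803) or 4 (0.102), or WT replicate 3 (0.0508). Against CDK8KO it was lost without DKO replicate 2 (0.125) or 4 (0.136), CDK8KO replicate 1 (0.0621), 2 (0.0861) or 4 (0.0736), CDK19KO replicate 2 (0.0557), VAV replicate 1 (0.0518) or 4 (0.0548), or WT replicate 1 (0.0549) or 3 (0.0553). It was also lost without both muscle-rich libraries (adjusted p = 0.158 against VAV and 0.154 against CDK8KO) and without both libraries rich in red cell transcripts (0.0663 against VAV and 0.0505 against CDK8KO).

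In DKO against CDK19KO, 2 of 23 other niche genes fell: Apoe, apolipoprotein E, to 842 normalized counts in DKO against 1598 in CDK19KO, and Fabp4, a fatty acid carrier, to 239 in DKO against 622 in CDK19KO (limma adjusted p = 0.00749 and 0.0384). Macrophages also make Apoe, and 6 of 16 macrophage markers fell in that comparison. Fabp4 had 159, 152, 505 and 302 normalized counts in VAV, against 601, 723 and 518 in WT. Apoe had 823, 936, 1532 and 1320 in VAV, against 1954, 1661 and 1327 in WT. Neither gene passed in DKO against VAV. Cdk8 loss and Cre cannot be told apart in DKO against CDK19KO, and the part of Cre in these falls was not tested. No gene of the other bone-forming list (11 tested), the mural list (7) or the other osteoclast list (13) passed in any comparison. No gene of any of these lists passed in CDK8KO against VAV, CDK19KO against WT or VAV against WT.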

How the data were processed

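RNA was extracted with Trizol and made into libraries with a polyA kit (Roche Kapa) for paired reads of 150 bases, per the labels. The submitters' processing notes name Salmon 1.4.0, DESeq2 and mm10 without roles, and the annotation release is not given in the sources used here. The authors deposited normalized counts, a signal made by dividing all counts of a library by 1 constant: 100% of values were whole multiples of that step within 0.001 read, and whole reads were recovered from it. Genes were matched by ID to GENCODE vM21 (34372 of 34432), the source of coordinates and exon lengths.

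Values were fitted as log2(normalized count + 1) with limma 3.58.1 in R 4.3.3 (trend, all 5 genotypes, no covariate) over the 13976 genes that averaged at least 10, with Benjamini-Hochberg adjustment over all of them. Fold changes are on that scale, which understates changes of low genes. Recovered reads were also tested with edgeR 4.0.16 and DESeq2 1.42.0. Where no read was counted, up to 3 reads are allowed at the 95% level. Every pair of libraries of a genotype differed by more than sampling noise (chi-square over its degrees of freedom at least 15.6).

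The 35 genes and the other lists were chosen with earlier results of these data known. Values per library are given for genes that passed in any comparison, and for the 3 genes of each role (both osteoclast genes) with the smallest p in DKO against VAV. A gene with separate libraries in DKO against VAV would also have been named; none had. Other genes shown by library (Bglap, Bglap2, Spp1, Col1a1) were chosen after their values were seen, as were Lepr and Col1a1 values in the relations between genes. From the other tissue lists the genes that passed are named; by the rule only 3 of the 4 vessel genes in DKO against CDK19KO would be, and Eng was added after its values were seen. Macrophage markers are named where Fn1 is described and otherwise given as counts. ± is SD for normalized counts and SE for fold changes. Alternatives were other pseudocounts, filters, scalings, sample sets, weights, covariates and tools.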

Additional observations from a re-analysis of the deposited data

Results flagged for a closer look

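In groups of 4 libraries, a value far from the other 3 was looked for in each gene and genotype, 140 groups in all, of which 9 held such a value; chance gives about 1 in 20. CDK8KO replicate 1 held 4 of them, all high: Col1a1 at 1380 normalized counts (121 to 189 in the others), Col5a1 at 585 (202 to 238), Bglap at 31.5 (0.754 to 4.38) and Flt4 at 123 (50.3 to 61.2). VAV replicate 3 was high for Lum at 57.5 (19 to 24.1 in the others), and CDK19KO replicate 2 for Bglap at 103 (32.9 to 42.1). CDK19KO replicate 1 was low for Ibsp at 429 (742 to 776) and for Pdgfrb at 109 (187 to 193). DKO replicate 2 was high for Pdgfrb at 189 (120 to 129). CDK8KO replicate 1 and VAV replicate 3 are also the libraries with the most red cell transcripts, and what part this had was not tested.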

How the results depend on the processing

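Each count of calls among the 35 genes was recomputed under 32 or 33 alternatives. No gene passed in CDK8KO against VAV or CDK19KO against WT under any of the 33. In DKO against VAV, where 0 passed, 1 (Fn1) passed with array weights, with the red cell level as a covariate, without both libraries rich in red cell transcripts (chosen after seeing the data) and with DESeq2. Under these settings 224, 612, 385 and 504 of all genes were called (213 as reported). In VAV against WT, 3 (Vim, Bglap and Runx2) passed with array weights and without those libraries, when 640 and 1060 of all genes were called (13 as reported), and 1 (Runx2) with DESeq2 (320 of all genes). In DKO against CDK8KO, where Cdh5 and Fn1 passed, 1 remained with no filter on low values (Cdh5) and with array weights (Fn1), 0 with only the compared groups in the fit or without both muscle-rich libraries, and 3 (Cdh5, Fn1 and Bglap) with the red cell covariate. In DKO against CDK19KO, 6 passed with only the compared groups, 5 with array weights, 4 without the libraries rich in red cell transcripts, 2 with DESeq2 and 1 (Fn1) with the red cell covariate, when 968, 1251, 880, 601 and 135 of all genes were called (279 as reported). In the interaction 1 (Fn1) passed with the red cell covariate. With 1 library left out, the counts ranged from 0 to 1 in DKO against VAV, 0 to 2 in VAV against WT, 0 to 2 in DKO against CDK8KO and 0 to 1 in DKO against CDK19KO, and were 0 in the others. The cause of these shifts was not tested.

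Same-numbered libraries do not pair: over all 36 pairs with a shared number the correlations ranged from -0.274 to 0.306, and 4 of 19 libraries correlated best with their own number. With the replicate number as a block, the count in DKO against CDK8KO was 1 (Fn1), and Cdh5 had an adjusted p of 0.0548; the block changed no other count among the 35 genes. Col14a1 in DKO against VAV and against CDK8KO was also past the threshold without the block only (adjusted p = 0.054 and 0.0597 with it).

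Of the 14 genes named in DKO against VAV, 12 kept their sign in every alternative, but not their size: Col3a1 (1.07) stood at 0.39 without VAV replicate 2, Adipoq (-0.79) at -0.46 without VAV replicate 3, and Runx2 (-0.29) at -0.02 with WT and VAV pooled as the control. Acp5, at -0.22, turned to 0.067 with the red cell covariate and to 0.15 without VAV replicate 3 or without both libraries rich in red cell transcripts. Ctsk, at 0.20, turned to -0.080 with array weights, -0.055 without DKO replicate 3 and -0.18 without VAV replicate 1. With 1 library left out, Acp5 ranged from -0.50 to 0.15 and Ctsk from -0.18 to 0.57. Genes with few reads (Bglap, Bglap2, Sp7 and Postn) are limited by depth.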
